A study of Mus musculus with 7 samples.

Results

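The genes described here are 8 genes of fatty acid desaturation and chain elongation: the stearoyl-CoA desaturases Scd1, Scd2, Scd3 and Scd4, the polyunsaturated fatty acid desaturases Fads1 and Fads2, and the elongases Elovl3 and Elovl5. They were taken by gene name from a table of 55487 genes, and all 8 were found and passed the filter on low counts. The list was drawn up with the CB-100 against sham comparison of these same libraries known. The values of the 8 genes in that comparison are therefore given as a description, with no p-value of their own. The number of them called by a fit over all genes is given, for each setting named, beside the share of all genes called, and supports nothing.

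Total RNA of brown adipose tissue, the fat that burns lipid for heat, was sequenced from 7 mice of the diabetes-prone strain NOD/ShiLtJ. The CB-100 group (4 mice) received the fraction above 100 kDa of buffer conditioned by brown adipocytes (labelled imBAT), injected under the skin for 7 days at 1.5 mg per kg of body weight. The sham group (3 mice) received KRBH buffer. Blood glucose at injection lay between 190 and 230 mg/dL and tissue was taken 2 to 8 weeks later, with no week given for a single mouse and no schedule given for sham apart from that of CB-100. The sample titles carry nd in each CB-100 sample and d in each sham sample; what this code marks cannot be told apart from the injection. Age and sequencing batch are not given. Xist and Y-linked transcripts showed 1 male in each group.

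Fatty acid synthesis ends in saturated acyl chains. The Scd enzymes of the endoplasmic reticulum put the first double bond into palmitoyl-CoA and stearoyl-CoA, drawing electrons from cytochrome b5, and so make the monounsaturated acyl chains of triglycerides and membrane lipids. Fads2 and Fads1 act in turn on the essential fatty acids linoleic and alpha-linolenic acid, with Elovl5 lengthening the chain between them, to give arachidonic acid and its omega-3 relatives. Elovl3 makes very long saturated and monounsaturated chains, and in mouse brown fat it is known for its strong induction by cold. Insulin and the transcription factors SREBP-1c and LXR raise transcription of Scd1 and of several of the others.

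Library totals ran from 10815101 to 28528471 counts. Ucp1, the uncoupling protein that defines brown fat, was detected in each library, at 450 to 2237 CPM (counts scaled to library size by TMM) in CB-100 and 46.1 to 875 CPM in sham. Skeletal muscle transcripts (8 genes, none at 0) were present in each library too, summing to 229 to 1699 CPM in the CB-100 mice and 659 to 1495 CPM in sham. The summed level of 8 adipocyte genes was 6698 to 8781 CPM in the CB-100 mice and 9428 to 13075 CPM in sham. The sums did not overlap, but none of the 8 passed the test and the genes did not move alike. Mean levels in CB-100 and sham were 1645 and 3287 CPM for Pnpla2, a lipase gene, and 2237 and 3585 CPM for Fabp4. Cd36 was nearly level, at 1199 and 1288 CPM, and Plin1 alone of the 8 had the higher mean in CB-100, at 799 and 692 CPM. Mitochondrially encoded transcripts took 22.3% to 36.3% of counts in CB-100 and 14.3% to 22.8% in sham. The part of these differences in the values below was not tested, and in whole tissue fewer cells of a type and less RNA per cell cannot be told apart.

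The 4 Scd genes are close copies that lie side by side on chromosome 19 of GRCm38. Scd3 lies at chr19:44203269-44244016, Scd2 at chr19:44293674-44306864 and Scd4 at chr19:44333092-44346743, all on the plus strand, and Scd1 at chr19:44394455-44407879 on the minus strand. Their coding sequences are 1062 to 1080 nucleotides long. That of Scd1 was 91.5% identical to Scd3, 90.4% to Scd2 and 84.7% to Scd4, with unbroken identical runs of 185, 147 and 116 nucleotides. One stretch of 120 nucleotides from the run shared by Scd1 and Scd3 is shown, with capitals for bases that differ from Scd1. A read lying wholly inside it fits Scd1 and Scd3 equally. It fits Scd2 or Scd4 as well only where it covers none of the bases in capitals. The sequences are from GENCODE release M21 and start at coding positions 463, 472, 475 and 457 of Scd1, Scd2, Scd3 and Scd4.
Scd1: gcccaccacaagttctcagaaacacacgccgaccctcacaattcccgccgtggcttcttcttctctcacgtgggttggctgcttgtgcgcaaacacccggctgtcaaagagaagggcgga
Scd2: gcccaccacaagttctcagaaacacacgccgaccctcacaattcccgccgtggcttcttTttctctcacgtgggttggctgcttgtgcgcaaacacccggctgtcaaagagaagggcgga
Scd3: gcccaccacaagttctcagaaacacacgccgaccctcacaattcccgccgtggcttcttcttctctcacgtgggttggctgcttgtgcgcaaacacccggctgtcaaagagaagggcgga
Scd4: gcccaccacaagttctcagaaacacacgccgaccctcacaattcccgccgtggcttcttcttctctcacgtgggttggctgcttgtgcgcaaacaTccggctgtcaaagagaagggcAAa
Within this window Scd3 had 0, Scd2 had 1 and Scd4 had 3 differences from Scd1.

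Outside such stretches the transcripts can be told apart. Of all 50-nucleotide windows of the longest coding transcript, 4.66% of Scd1, 4.01% of Scd2, 6.69% of Scd3 and 6.32% of Scd4 were also found in a transcript of another gene, mostly of the same family. For windows of 100 nucleotides the shares were 2.66%, 0.896%, 2.54% and 0.530%, in the same order. Fads1, Elovl3 and Elovl5 shared 0 windows of 50 nucleotides with any other gene, and Fads2 shared 0.161% of its windows, with Fads3. Among the members the deposited counts follow this division. They were not whole numbers in 7 of 7 libraries for Scd1, Scd2 and Scd3 and in 6 of 7 for Scd4, and were whole in each library for the other 4 genes. Non-whole counts were not particular to the Scd family. Genes with such counts held 43.5% to 54.8% of all counts in each library. The sources used here give neither the read length nor the way shared reads were divided.

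Scd1, the main adipose and liver desaturase, had the highest CPM of the 8 genes in each library. It stood at 6980, 2691, 5268 and 3541 CPM in CB-100 replicates 1 to 4 and at 334, 261 and 52.3 CPM in sham replicates 1 to 3. The groups did not overlap, and sham replicate 3 was far below the other sham libraries. Means were 4620 ± 1904 CPM in CB-100 (SD, n = 4) and 216 ± 146 CPM in sham (SD, n = 3), a log2 change of 4.42 (SE 0.70). In the 3 CB-100 and 2 sham females the means were 4404 and 298 CPM, and in the single males 5268 and 52.3 CPM. The log2 change was 3.95 without sham replicate 3, whose level is the lowest, and 3.88 in females only.

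**Figure D1:**
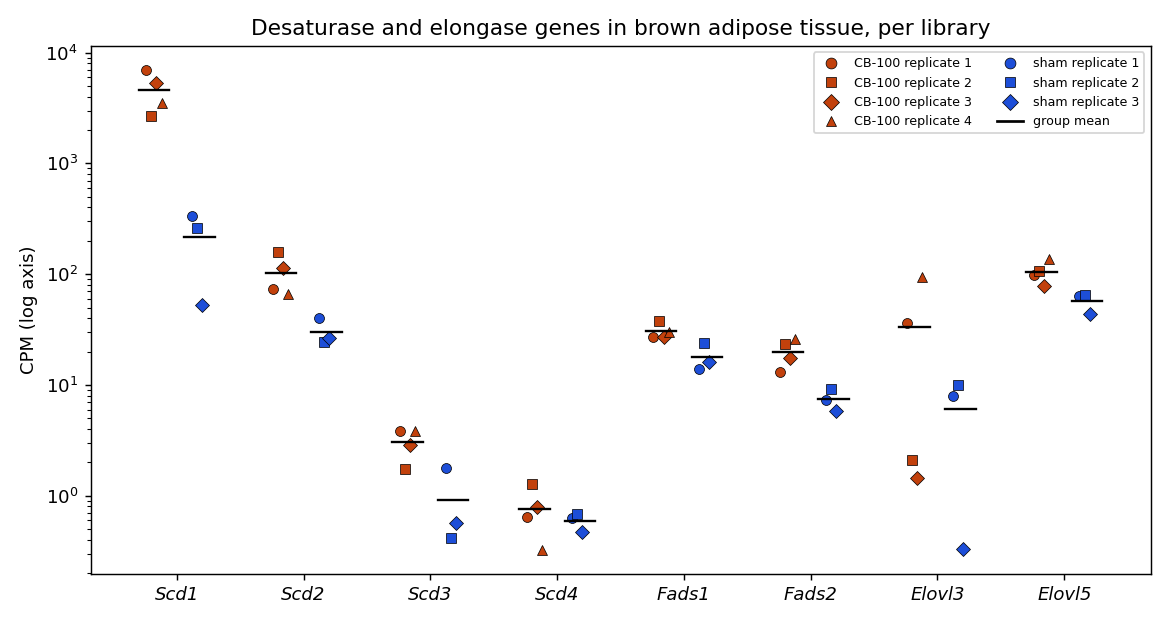
Level of each desaturase and elongase gene in each of the 7 libraries, in CPM on a log axis, with CB-100 (4 libraries, orange) left of sham (3 libraries, blue) for each gene; marker shape gives the replicate and the bar the group mean. Scd1, Scd2, Fads1, Fads2 and Elovl5 keep the groups apart, while Scd3, Scd4 and Elovl3 overlap.

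Scd2, the form best known from brain and from developing tissue in mice, was at 73.0, 158, 114 and 66.8 CPM in the CB-100 mice and 39.8, 24.3 and 26.7 CPM in sham. Again no library of one group reached the other, with a log2 change of 1.76 (SE 0.34). Its order among the CB-100 libraries was not that of Scd1: CB-100 replicate 2 was highest for Scd2 and lowest for Scd1, and CB-100 replicate 1 was highest for Scd1. Scd2 also contains the microRNA gene Mir5114 within an exon. The ratio of the Scd2 to the Scd1 count ranged from 1.05% to 5.86% in CB-100 and from 9.31% to 51.1% in sham. Schwann cell transcripts, of a cell type in which Scd2 is also expressed, moved in the same direction. The sum of 8 Schwann cell genes (6 of them above a mean of 1 CPM, none at 0) was 118 to 122 CPM in the CB-100 mice and 69.0 to 85.6 CPM in sham. Of its 6 tested genes Pmp22, a myelin protein, rose, with a log2 change of 0.80 (SE 0.17) at an edgeR adjusted p of 0.042. Its part in the Scd2 values was not tested.

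Because Scd1 outnumbers Scd2 so strongly, a small share of Scd1 reads counted as Scd2 would be large for Scd2. No library can hold more such reads than it has Scd2 counts, and CB-100 replicate 1 limits that share to 1.05% of the Scd1 count. With this largest share subtracted from each library, Scd2 stood at 0, 130, 59.3 and 29.8 CPM in the CB-100 mice and 36.3, 21.6 and 26.2 CPM in sham. The groups then overlapped and the log2 change was 0.96 (SE 1.20), in place of 1.76. The subtraction takes CB-100 replicate 1 to 0 by construction, so it gives an extreme and not an estimate. With the 4 Scd genes summed into 1 feature the log2 change was 4.25 (SE 0.62).

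**Figure D2:**
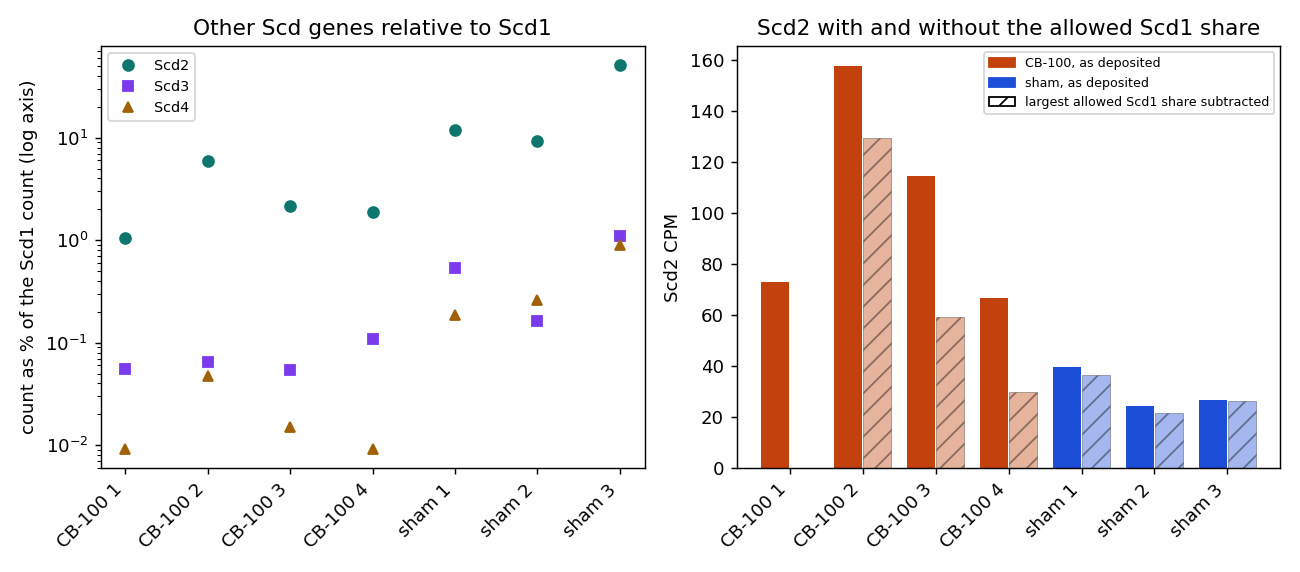
Left, counts of Scd2, Scd3 and Scd4 as a percentage of the Scd1 count in each library (log axis); right, Scd2 in CPM per library as deposited (solid bars) and after subtracting the largest Scd1 share the libraries allow (hatched bars), with CB-100 in orange and sham in blue. Ratios to Scd1 are lower in the CB-100 libraries than in the sham libraries for each of the 3 genes, and after subtraction Scd2 overlaps between the groups.

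Scd3 and Scd4 had few counts. Scd3, known from skin and its sebaceous glands in mice, had 53.7, 19.3, 39.6 and 83.2 counts in CB-100 and 34.4, 6.14 and 12.1 counts in sham. This gave 3.86, 1.74, 2.88 and 3.86 CPM in the CB-100 mice and 1.77, 0.412 and 0.564 CPM in sham, with CB-100 replicate 2 just below sham replicate 1. The log2 change was 1.74 (SE 0.52), and 2.63 without sham replicate 1. The Scd1 count allows a share of up to 0.054% for Scd3, set by CB-100 replicate 3. With that share subtracted Scd3 was at 0.074, 0.307, 0 and 1.96 CPM in the CB-100 mice and 1.61, 0.281 and 0.542 CPM in sham, and the groups overlapped. Skin and sebaceous gland transcripts summed to 14.3 to 46.9 CPM in the CB-100 mice and 20.8 to 33.3 CPM in sham, with overlap. Mc5r, a melanocortin receptor of sebaceous glands, made up much of that sum, at 11.9 ± 10.9 CPM in the CB-100 mice (SD, n = 4) and 17.2 ± 7.70 CPM in sham (SD, n = 3). Krt79, a keratin of hair follicle and sebaceous ducts, lay on the same side as Scd3, at 7.01, 4.11, 5.32 and 2.79 CPM in the CB-100 mice and 1.82, 2.40 and 1.36 CPM in sham. Its groups did not overlap, with a log2 change of 1.37 (SE 0.37) at an edgeR adjusted p of 0.068, and its part in the Scd3 values was not tested. None of the 6 tested genes of the 9 in this list passed. Dgat2l6 was at 0 in 4 CB-100 libraries and 1 sham library and Lor was at 0 in 1 of each.

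Scd4, known from mouse heart, had 7.01 to 14.0 counts in CB-100 and 9.93 to 12 counts in sham. Its level was 0.760 ± 0.397 CPM in CB-100 (SD, n = 4) and 0.594 ± 0.112 CPM in sham (SD, n = 3), and the sham range lay inside the CB-100 range. The log2 change of 0.31 (SE 0.50) was smaller than its error and turned to -0.041 without CB-100 replicate 2. No difference was detectable at this depth.

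Fads2, whose enzyme takes the first step in making polyunsaturated fatty acids from linoleic acid, stood at 12.9, 23.2, 17.5 and 26.1 CPM in the CB-100 mice and 7.24, 9.21 and 5.83 CPM in sham. The lowest CB-100 library was above the highest sham library. Means were 20.0 ± 5.88 CPM in CB-100 (SD, n = 4) and 7.42 ± 1.70 CPM in sham (SD, n = 3), with a log2 change of 1.43 (SE 0.27).

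Fads1, which acts later in the same route and is the neighbour of Fads2 on chromosome 19, was at 27.1, 37.4, 26.9 and 30.2 CPM in the CB-100 mice and 14.0, 23.9 and 16.0 CPM in sham. The gap between the groups was narrow, from sham replicate 2 to CB-100 replicate 3, and the log2 change was 0.76 (SE 0.21). Fads1 lies at chr19:10182888-10196877 on the plus strand and Fads2 at chr19:10062765-10101746 on the minus strand. Both had whole-number counts, and their coding sequences were 67.0% identical with no identical run over 17 nucleotides.

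Elovl5, the elongase that serves the polyunsaturated route, was at 97.7, 107, 77.9 and 137 CPM in the CB-100 mice and 63.9, 65.3 and 44.0 CPM in sham. The male of each group was its lowest library. No overlap was seen, and the log2 change was 0.86 (SE 0.22). Its log2 change stayed between 0.69 and 0.98 in 19 alternative settings.

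Elovl5 is the only one of the 8 genes that does not lie on chromosome 19, being at chr9:77917364-77984519 on the plus strand. Its promoter is shown because it was the only one of 4 members with a promoter in the RefSeq table (Scd3, Scd4, Fads2 and Elovl5) to hold CCAAT, the core of NF-Y sites. The 250 bases end at the annotated start, from chr9:77917115-77917364 of GRCm38.p6, and capitals mark CCAAT on the minus strand, which reads ATTGG here.
Elovl5: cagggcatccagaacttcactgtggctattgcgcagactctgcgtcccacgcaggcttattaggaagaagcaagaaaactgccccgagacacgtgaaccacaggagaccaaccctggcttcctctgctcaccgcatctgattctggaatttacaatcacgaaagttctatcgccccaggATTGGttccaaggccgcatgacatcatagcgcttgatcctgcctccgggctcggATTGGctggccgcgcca
The matches begin 71 and 17 bases before the start. CCAAT was present on either strand in 33.8% of 32851 promoter windows of this length. Of the other motifs searched, GGGCGG was found once in the Fads2 window and in 32.7% of all windows. TCACNCCAC (1.05% of windows), TATAAA (12.4%) and AGGTCA (14.0%) were in none of the 4. A match is a string of letters and not a shown binding site.

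Elovl3 was the most variable of the 8 genes. It stood at 36.1, 2.10, 1.44 and 94.3 CPM in the CB-100 mice and at 7.86, 9.96 and 0.329 CPM in sham. Highest and lowest library differed 65.6-fold within CB-100 and 30.3-fold within sham, and the 2 groups overlapped. The mean of 33.5 ± 43.7 CPM in CB-100 (SD, n = 4) had a larger SD than its own size, against 6.05 ± 5.07 CPM in sham (SD, n = 3). Its log2 change of 2.50 (SE 1.49) became 1.16 without CB-100 replicate 4, the highest library. The lowest Elovl3 library of each group was that of its male. With sex as covariate the log2 change was 2.29 (SE 1.04), and in females only it was 2.31 (SE 1.21). Elovl3 lies at chr19:46131897-46135694 and shares 10 exonic bases with Pitx3 on the opposite strand.

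The thermogenic genes Ucp1 and Dio2 also varied widely between the same libraries. Ucp1 was at 2237, 450, 1098 and 1824 CPM in the CB-100 mice and 140, 875 and 46.1 CPM in sham. Dio2, the deiodinase that makes active thyroid hormone in brown fat, was at 98.7, 107, 43.6 and 377 CPM in the CB-100 mice and 26.1, 27.8 and 1.03 CPM in sham. CB-100 replicates 1 and 4 were the highest 2 libraries for Elovl3 and Ucp1, and sham replicate 3 was the lowest for Elovl3, Ucp1 and Dio2. Sham replicate 3 was also the lowest for Scd1.

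**Figure D3:**
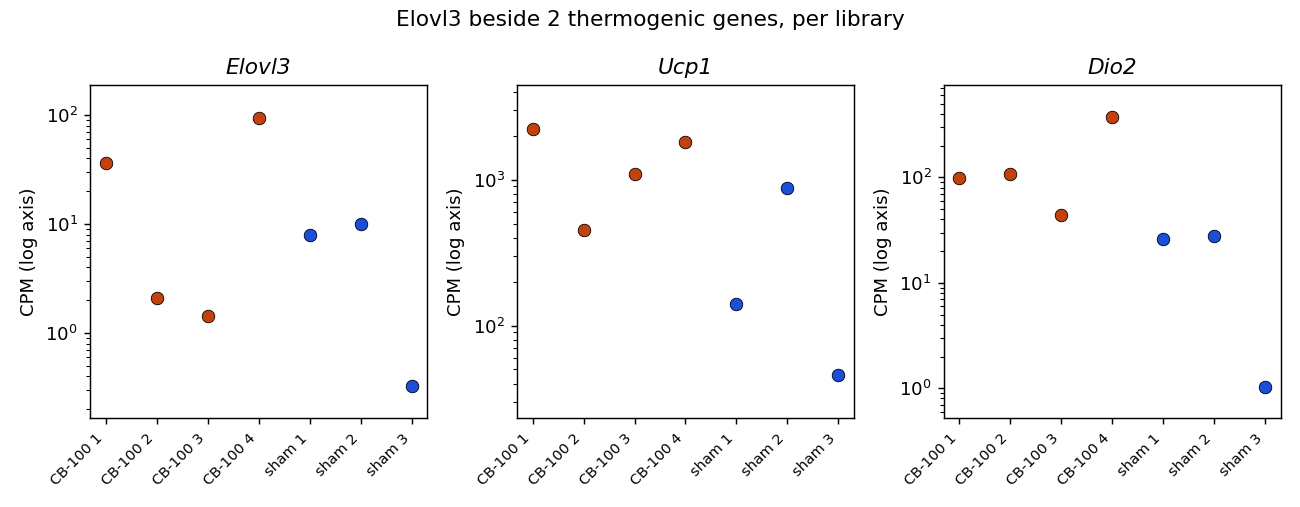
Elovl3, Ucp1 and Dio2 in each library in CPM on log axes, with CB-100 libraries in orange and sham libraries in blue. Sham replicate 3 is lowest in each panel, and Elovl3 spans 1.44 to 94.3 CPM within CB-100. The brown adipocyte genes not shown include some with estimates below 0, and no gene of that list passed.

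Per kilobase of exon, the order of levels in CB-100 was Scd1 (944 ± 389 CPM per kb), Elovl5 (29.8 ± 7.03), Scd2 (18.8 ± 7.72), Elovl3 (17.0 ± 22.1), Fads1 (6.32 ± 1.02), Fads2 (6.06 ± 1.78), Scd3 (0.868 ± 0.285) and Scd4 (0.202 ± 0.105), each as mean and SD of 4 libraries. In sham it was Scd1 (44.1 ± 29.9 CPM per kb), Elovl5 (16.4 ± 3.40), Scd2 (5.55 ± 1.53), Fads1 (3.74 ± 1.09), Elovl3 (3.06 ± 2.56), Fads2 (2.25 ± 0.515), Scd3 (0.258 ± 0.209) and Scd4 (0.158 ± 0.030), over 3 libraries. Neighbours in the CB-100 order whose library ranges overlapped were Elovl5 with Scd2, Scd2 with Elovl3, Elovl3 with Fads1, and Fads1 with Fads2. In the sham order they were Scd1 with Elovl5, Scd2 with Fads1, Fads1 with Elovl3, Elovl3 with Fads2, and Scd3 with Scd4. In sham replicate 3 Elovl5 (12.5 CPM per kb) was above Scd1 (10.7 CPM per kb). The Scd family as a whole took 0.272% to 0.672% of all counts in CB-100 and 0.0087% to 0.0469% in sham. Scd1 made up 94.4% to 98.9% of the family's counts in CB-100 and 65.3% to 91.1% in sham.

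As a set, the 8 genes had a median log2 change of 1.58, beside 0.03 over all 16823 genes tested, and each of the 8 estimates was above 0. Of the 8, 3 (Scd1, Scd2 and Fads2) were among the 3.70% of tested genes called by edgeR's quasi-likelihood test with Benjamini-Hochberg adjustment at 0.05 (1.42% higher and 2.28% lower). No overlap with CB-100 higher was seen for 5 of the 8, and for 11.1% of all genes tested. These counts describe genes chosen on this same contrast and carry no weight of their own. They also moved with the fit: DESeq2 called 6 of the 8 (adding Scd3, Fads1 and Elovl5) and 11.7% of all genes, and limma voom called 4 and 7.21%. With sex as covariate edgeR called 2 (Scd1 and Fads2) and 1.41% of all genes. With 1 library left out it called 0 to 3 of the 8, and 0.046% to 3.67% of all genes. It called 0 without CB-100 replicate 2, sham replicate 1 or sham replicate 3, where 0.145%, 0.081% and 0.046% of all genes were called. In females only it called 0 of the 8 and 0 of all genes.

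**Figure D4:**
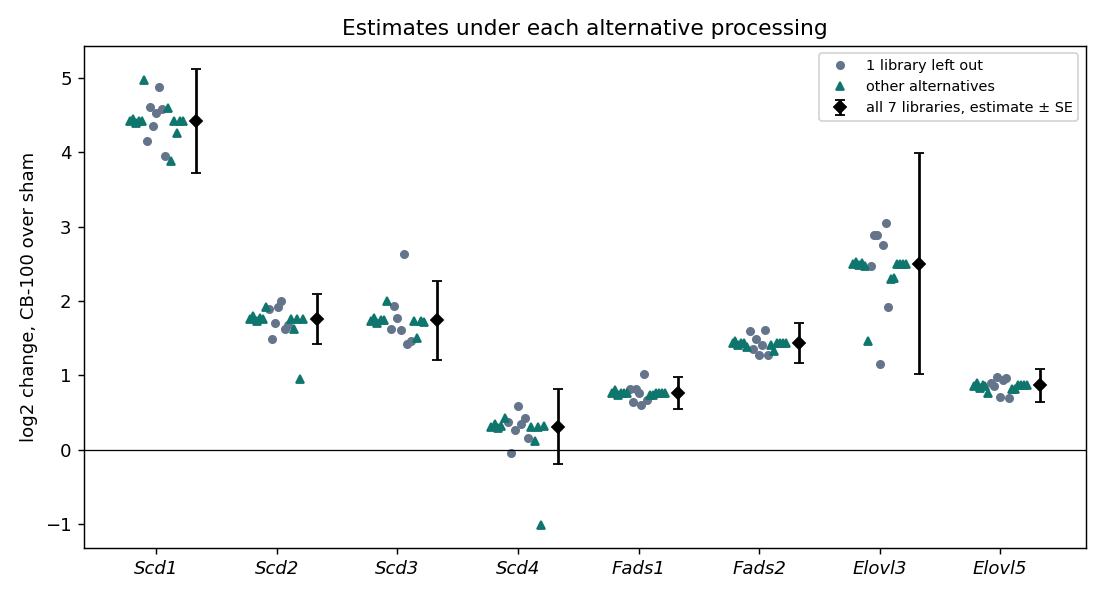
Log2 change of CB-100 over sham for each gene with all 7 libraries (black diamonds, ± SE), with 1 library left out (grey circles) and under the other alternatives (green triangles). Scd1 stays between 3.88 and 4.97, Scd4 crosses 0, and Elovl3 has the longest error bar.

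Genes around these enzymes were described from 5 lists of 61 genes, none of them among the 8, of which 58 were tested. Of these, 4 rose, 1 fell and 53 did not pass, so that 8.62% were called beside 3.70% of all genes. Their median log2 change was 0.26. The lists too were chosen with earlier results of these data known, so these values are a description and carry no weight of their own. Each of the 5 called genes kept its libraries apart, but none passed without sham replicate 1, sham replicate 3 or CB-100 replicate 2, or in females only.

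Cyb5a, the cytochrome b5 that hands electrons to the desaturases, fell, opposite in direction to Scd1. It was at 55.7, 44.7, 57.8 and 51.4 CPM in the CB-100 mice and 141, 73.0 and 136 CPM in sham. All CB-100 libraries lay below the lowest sham library, and the log2 change was -1.16 (SE 0.23) at an edgeR adjusted p of 0.035. Cyb5r1, a member of the cytochrome b5 reductase family, rose to 29.0, 27.6, 28.8 and 42.8 CPM in CB-100, against 17.0, 20.0 and 16.8 CPM in sham. Its log2 change was 0.84 (SE 0.19) at an edgeR adjusted p of 0.046. Both calls were also lost without CB-100 replicate 1 or 3 (edgeR adjusted p = 0.063 to 0.071) and with sex as covariate, and that of Cyb5r1 without sham replicate 2. The other 10 of 12 genes in the list of the elongation cycle and its electron supply did not pass, among them Cyb5r3, the main reductase (log2 change 0.26), Hsd17b12 (0.25) and Tecr (-0.37), which carry out steps of each elongation round. The median of the list was 0.14.

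Among 16 genes of SREBP, LXR and ChREBP control and their targets, 2 rose, 0 fell and 14 did not pass, with a median log2 change of 0.19. Srebf1, which encodes SREBP-1, was at 258, 290, 280 and 221 CPM in the CB-100 mice and 149, 169 and 152 CPM in sham, with a log2 change of 0.74 (SE 0.16) and an edgeR adjusted p of 0.046. Each CB-100 level was above the highest sham level. Srebf1 has 109 exonic bases in common with Rai1 on the opposite strand and is uncertain if counting ignored strand. Its call was also lost when CB-100 replicate 1, sham replicate 2 or CB-100 replicate 3 was left out and with sex as covariate (edgeR adjusted p = 0.072 to 0.084). Of the 16 estimates 11 were above 0, among them Srebf2 (0.63, edgeR adjusted p = 0.056) and Insig1 (0.85, edgeR adjusted p = 0.15), neither of which passed. Abca1, Abcg1 and Mylip, which are some of the LXR targets in the list, had log2 changes of 0.17, -1.01 and -0.82. None of these passed (edgeR adjusted p = 0.69, 0.28 and 0.093).

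In the list of acyl-CoA synthetases and acyl remodelling 1 of 13 tested genes rose and 0 fell, with a median log2 change of 0.41. Lpcat1, a lysophosphatidylcholine acyltransferase that puts saturated chains into phospholipid, was at 15.1, 14.9, 17.5 and 18.4 CPM in the CB-100 mice and 6.61, 7.97 and 8.37 CPM in sham. The groups lay far apart beside the spread inside each, and the log2 change was 1.11 (SE 0.17) at an edgeR adjusted p of 0.022. Lpcat3, which prefers polyunsaturated chains, gave 0.33 and Acsl4, the synthetase for arachidonic acid, -0.42, and neither passed.

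Other elongases and desaturases did not pass, 0 of 7 tested (median log2 change 0.45; Elovl2 and Elovl7 were below the filter). The smallest p-values belonged to Elovl4, an elongase of very long chains (1.97, SE 0.91, edgeR adjusted p = 0.23), and Elovl1 (0.49, edgeR adjusted p = 0.38), which shares 53 exonic bases with Cdc20 on the opposite strand. Elovl6, which lengthens palmitate to stearate and so feeds the Scd enzymes, averaged 333 ± 253 CPM in CB-100 (SD, n = 4) and 253 ± 57.4 CPM in sham (SD, n = 3), a log2 change of 0.40. In palmitate synthesis and its carbon supply 0 of 10 passed and the median was -0.16, with 5 estimates on each side of 0. Me1, the malic enzyme that supplies NADPH, came closest at 181 ± 82.1 CPM in CB-100 (SD, n = 4) and 75.7 ± 6.81 CPM in sham (SD, n = 3; log2 change 1.26, edgeR adjusted p = 0.058), with non-whole counts. Mcat, a mitochondrial malonyltransferase, gave -0.46 (edgeR adjusted p = 0.14) and shares 53 exonic bases with Tspo on the opposite strand. Fasn, the fatty acid synthase, gave 0.36 (SE 0.43), Acaca, the carboxylase that makes its malonyl-CoA, -0.37 (SE 0.30) and Acly, the source of cytosolic acetyl-CoA, -0.39 (SE 0.26).

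**Figure D5:**
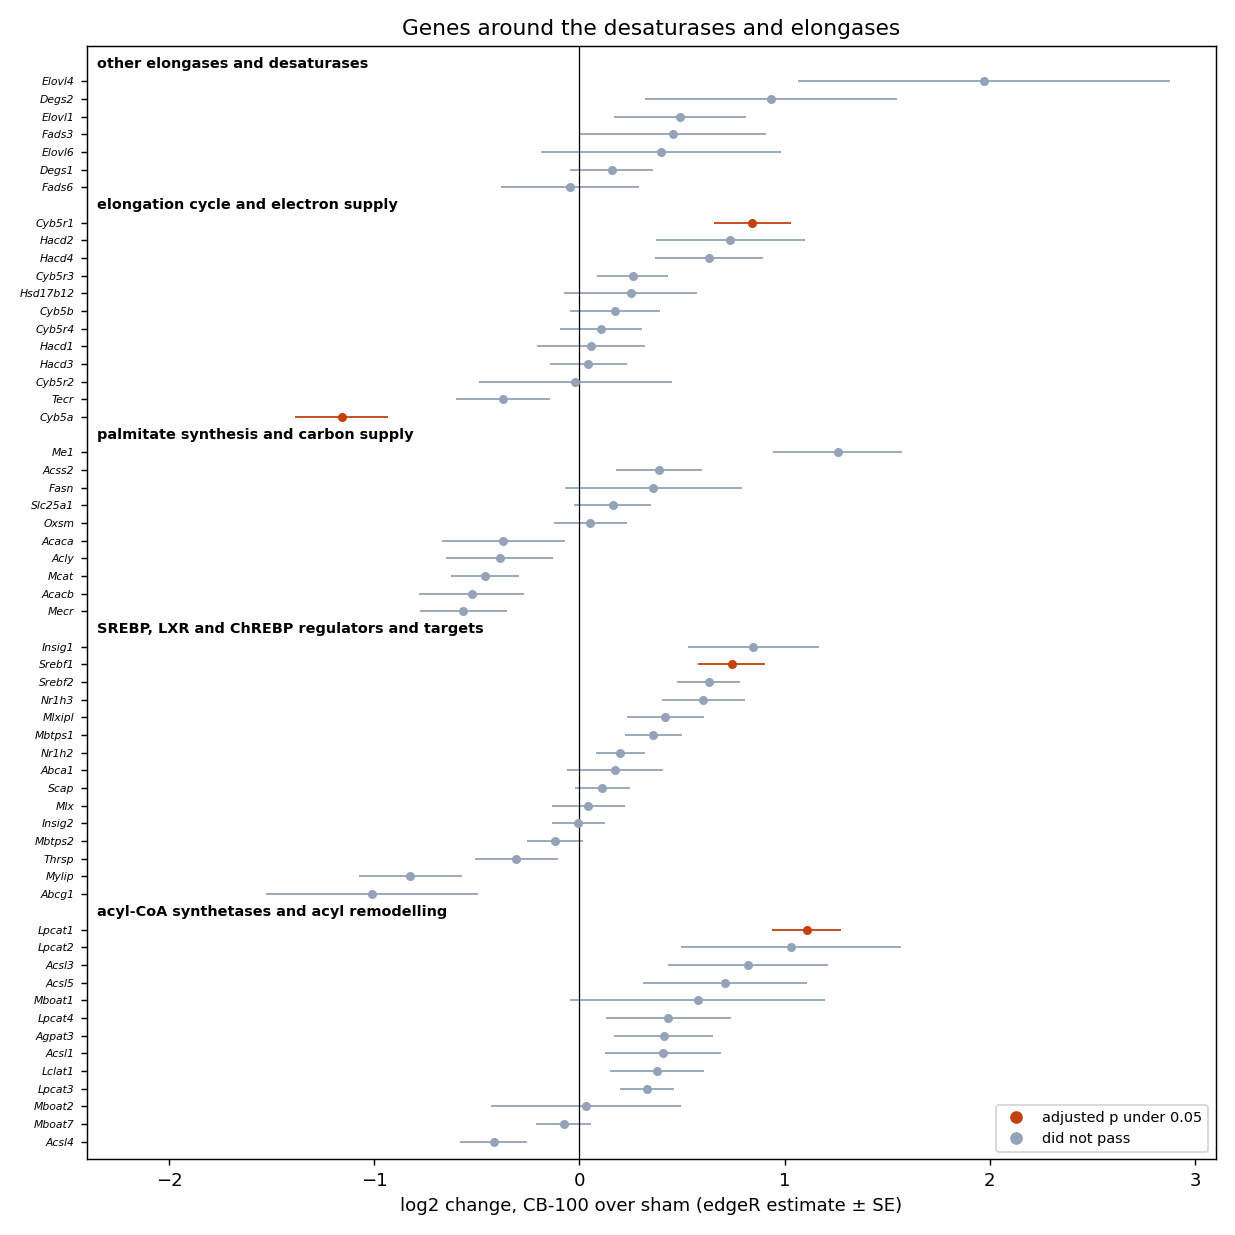
Log2 change of CB-100 over sham, with its SE, for 57 genes of 5 lists around the desaturases and elongases; orange marks an edgeR adjusted p under 0.05 over all genes. Cyb5r1, Srebf1 and Lpcat1 lie to the right of 0 and Cyb5a to the left, at -1.16.

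The closeness of other genes to each member was taken as the root mean square difference of log2 CPM, centred on each gene's mean over the 7 libraries, among 12745 protein-coding genes. The nearest to Scd1, whose own level varied by 2.49 about its mean, were Gm44502, a gene model that overlaps Chkb and Cpt1b on the same strand (difference 1.11), Pmepa1 (1.29) and S100b (1.32). Scd2 had much nearer matches in Arntl, which encodes the clock factor BMAL1 (0.27), Traf1 (0.32) and Npas2, another clock factor (0.35). Fads2 lay nearest to C1qtnf6 (0.14), Tbx5 (0.15) and Zfyve28 (0.16), and Fads1 to Cfb (0.09), Traf3 (0.10) and Tysnd1 (0.11). Elovl5 was matched by Trpm3 (0.10), Tmc8 (0.12) and Rgs6 (0.12), and Scd3 by Pim1 (0.49), Plxnb3 (0.52) and Asxl3 (0.54). For Elovl3, which varied by 2.48, the nearest was Rims2 (1.04), followed by Elovl4 (1.45) and Cxcl14 (1.47). Among the 7 members above a mean of 1 CPM the closest pair was Fads1 and Elovl5 (0.31), then Fads2 and Elovl5 (0.36). Genes with small changes lie closer together by this measure, which is given as a description.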

How the data were processed

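Expected counts, unscaled and with up to 2 decimals, make up the table that the authors deposited. STAR 2.7.9a mapped the reads to an Ensembl primary assembly, per the labels' protocols. Per the submitters' processing notes, featureCounts 2.0.3, Salmon 1.5.2, edgeR and limma were also used, with no role given. Strandedness is not given in the sources used here. Of 55774 lines, 287 exact repeats were removed. Counts were rounded, filtered with filterByExpr (16823 genes) and scaled by TMM (factors 0.755 to 1.25). They were tested with edgeR 4.0.16 (robust quasi-likelihood, two-sided, Benjamini-Hochberg over all genes, threshold 0.05) in R 4.3.3. DESeq2 1.42.0 and limma 3.58.1 were alternatives. SE is the log2 change over the square root of F. The code was tested on simulated data. Log2 CPM used a prior count of 2. Shared windows came from GENCODE M21 transcripts and coding sequences from their longest open reading frame. Replicates follow sample order, and animal codes in the titles are the only sign of separate mice, so p-values cover only the spread seen between samples, which may be technical. With 3 or 4 mice a group, the number of mice limits precision.

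The 8 members and the gene lists were chosen with earlier results of these data known. Named genes are the 8 members, each called gene of a list (1 is not reported here, in text or plot, though the counts include it) or else its 2 smallest p-values, and for each member above a mean of 1 CPM the 3 closest genes. Other genes in the text were chosen after their values were seen. The subtraction of an Scd1 share and the fit on unrounded counts were added after seeing the data. No set test was made. Of 8 marker lists, the brown adipocyte list summed to 1498 to 3905 CPM in CB-100 and 1502 to 2583 CPM in sham, macrophage to 94.4 to 228 and 108 to 171, lymphocyte to 15.3 to 20.8 and 10.5 to 15.5, and endothelial to 593 to 1422 and 507 to 803; the others are given with the results.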

Additional observations from a re-analysis of the deposited data

Results flagged for a closer look

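Cyb5r1, a cytochrome b5 reductase gene, had 1 CB-100 library far from the other 3: CB-100 replicate 4 stood at 42.8 CPM and the others at 27.6 to 29.0 CPM, a gap of 0.908 of the group's whole range. Without that library the call in CB-100 against sham was kept. Of 13 genes examined in this way, the 8 desaturase and elongase genes and the 5 called genes around them, this was the only one. Chance alone gives about 1 such gap in every 20 genes examined, so 1 among 13 is only a description.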

How the results depend on the processing

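With all 7 libraries edgeR called 622 genes, 5 of them in the lists around the desaturases. DESeq2 called 1968 (8 in the lists), limma voom 1213, a threshold of 0.1 gave 1860 (8) and sex as covariate 238 (1). Leaving out 1 library at a time gave 8 to 610 genes, and 0 to 6 in the lists. In females only edgeR, the one tool run there, called 0 genes, with 2578 at p under 0.05 before adjustment, and 0 in the lists, with 12. The lists also had 0 calls without CB-100 replicate 2, sham replicate 1 or sham replicate 3, with 16, 11 and 13 genes at that unadjusted level. Fewer samples enter these fits; otherwise the cause was not tested. Of the 8 members, Scd1, Fads1, Fads2 and Elovl5 moved by less than the spread between replicates in each of 19 alternatives. Elovl3 did so too, at 1.16 to 3.05, but its spread of 2.77 in log2 exceeds its own estimate of 2.50. This rule could therefore hardly mark Elovl3 as moved. Scd4 ran from -0.041 (without CB-100 replicate 2) to 0.59 with 1 library left out, and changed sign again with the largest Scd1 share subtracted (-1.01), and Scd3 moved to 2.63 without sham replicate 1. Scd2 moved only with that subtraction, to 0.96. Other scalings and filters, omission of mitochondrial genes and unrounded counts left each count within 1.5 times. Depth limits Scd3 and Scd4. No paired analysis was possible because the labels give no number shared between the groups.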

Other observations

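Neighbouring genes of the desaturases and elongases were looked at after the values of the members were known. The 3 nearest tested protein-coding genes on each side of the Scd cluster, which include Chuk, Bloc1s2, Wnt8b and Ndufb8, had log2 changes of -0.65 to 0.32, with 0 of 6 called. Around Fads1 and Fads2 the range was -1.02 to 0.45, again with 0 of 6 called; Fen1, a DNA repair nuclease, was lowest and Fads3 highest. Around Elovl3 it was -0.36 to 0.57 with 0 of 6 called. Of 6 genes around Elovl5, 1 was called: Gclc, a subunit of glutathione synthesis, fell, with a log2 change of -0.68 (SE 0.13) at an edgeR adjusted p of 0.036. In all, 1 of 24 neighbours was called, 4.17% beside 3.70% of all genes tested.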
